A study of Mus musculus with 29 samples.

Results

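Smooth muscle cells of the arterial wall keep their contractile state through a small circle of transcription factors. SRF binds the CArG box, a short AT-rich element in the promoters of contractile genes, and its output depends on the coactivator it carries. Myocardin (Myocd) is a coactivator found mainly in smooth and cardiac muscle, MRTFA and MRTFB are relatives that enter the nucleus when actin is polymerised, and ternary complex factors direct SRF to early response genes instead. MEF2 factors, GATA6 and TEAD1 act on overlapping sets of muscle genes, and KLF4 is known as a repressor of smooth muscle genes in cells that leave the contractile state.

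The 10 genes described here, Srf, Myocd, Mrtfa, Mrtfb, Mef2a, Mef2c, Mef2d, Gata6, Tead1 and Klf4, were taken as a written list of such factors and were matched by symbol to the Ensembl ids of the count table, 10 of its 56748 genes. Every one of the 10 had more than 10 counts in each of the 28 samples used, and all were among the 12353 genes tested. RNA was sequenced from the aortic arch of mice in 6 groups, 1 library per mouse, after flushing of the vessels with PBS. Wild type (WT) mice were compared with Ercc1Δ/- littermates on an F1 C57BL6J/FVB background, which carry 1 hypomorphic and 1 loss-of-function allele of the DNA repair gene Ercc1 in every cell, so that no cell type is singled out by the model. Mice had food ad libitum (AL) until 6 weeks (5 WT and 5 Ercc1Δ/-) or 22 weeks (4 WT and 4 Ercc1Δ/-), or dietary restriction (DR) until 22 weeks (5 WT and 5 Ercc1Δ/-), in steps from 7 weeks to a reduction of 30% from 9 weeks. All mice were housed alone and ate the same synthetic pellets (AIN93G), and males and females were present in each group.

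Levels are given as CPM, the counts of a gene per 1000000 counts of the library after TMM scaling. A gene was called when its Benjamini-Hochberg adjusted p from edgeR's quasi-likelihood test, with sex in the model, was at most 0.05 and its change at least 1.2-fold. Adjusted p-values below are from this test, over all 12353 genes. Gene counts ran from 921167 to 9616382 per library, and the median total was 6212607 in WT and 2392575.5 in Ercc1Δ/- at 22 weeks AL, and 5557760 against 1576566 on DR. Ercc1 itself was at 14.2 to 37.0 CPM in the 14 WT libraries and at 7.67 to 21.4 CPM in the 14 Ercc1Δ/- libraries, with overlap from 1 WT library at 6 weeks. The 6 smooth muscle markers (Myh11, Acta2, Tagln, Cnn1, Smtn, Lmod1) summed to 16700 to 42700 CPM, so every library held abundant smooth muscle RNA. In whole tissue, fewer smooth muscle cells and less RNA per cell cannot be told apart.

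The promoter of Srf is shown because SRF acts on its own gene through CArG boxes, and because Srf was among the genes lower in Ercc1Δ/- mice at 22 weeks. RefSeq promoter windows, 250 bases before to 50 after the start site on GRCm38.p6, were found for 7 of the 10 genes, and not for Myocd, Gata6 and Tead1. The 250 bases before the Srf start site lie on the minus strand at chr17:46556163-46556412, with CArG boxes in capitals.

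Srf: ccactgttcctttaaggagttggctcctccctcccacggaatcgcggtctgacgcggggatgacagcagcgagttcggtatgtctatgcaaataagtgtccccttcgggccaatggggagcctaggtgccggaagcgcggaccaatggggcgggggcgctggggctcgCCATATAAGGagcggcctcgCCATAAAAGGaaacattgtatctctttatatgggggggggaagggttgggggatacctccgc

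Srf was the only one of the 7 matched regulators with a CArG box in its window, with boxes that begin 82 and 62 bases before the start site. Searched on both strands, the element was in 1.63% of all 32851 windows. Counted by gene, it was found for 488 of all 27025 genes with a window. Among the 25 contractile target genes with a window, 4 held it, namely Vcl, Myl9, Fhl1 and Fhl2. For comparison with Srf, 40 bases around the box are given for 3 of these that were lower in Ercc1Δ/- mice at 22 weeks in at least 1 diet: Vcl (vinculin, plus strand, chr14:20929156-20929195), Myl9 (a myosin light chain, plus strand, chr2:156775288-156775327) and Fhl2 (a LIM protein that binds SRF, minus strand, chr1:43163968-43164007).

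Vcl: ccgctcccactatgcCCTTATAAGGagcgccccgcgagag

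Myl9: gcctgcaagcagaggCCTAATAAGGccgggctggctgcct

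Fhl2: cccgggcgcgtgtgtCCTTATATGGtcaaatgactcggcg

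A MEF2 site was in the windows of Mef2a and Mrtfb, and in 3.19% of all windows. In Mef2a the match, CTAAAAATAG, began 2 bases before the start site, so that a MEF2 gene holds a MEF2 site at its own start. The GATA motif GATAAG, searched on both strands, was in none of the 12 windows of the matched regulators and in 7.44% of all. The TEAD motif CATTCC, searched on both strands, was in windows of Mef2c and Mrtfb, and in 14.7% of all. These matches describe letters in a window and not bound sites.

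Levels between genes were compared as CPM per kb of exon. The length merged all annotated exons of a gene, from 3.15 kb for Klf4 to 17.13 kb for Mef2c. It can exceed the length of any 1 transcript, which would lower the level per kb. Averaged over the 28 libraries, Klf4 (36.2 CPM per kb) and Mef2d (33.4) were highest, followed by Srf (19.1), Gata6 (10.3), Mef2a (9.70), Mrtfa (8.31), Myocd (6.91), Mef2c (5.05), Tead1 (4.48) and Mrtfb (2.37). Per kb of the whole gene span, which fits counting over the gene body, Klf4 stayed highest at 21.2 CPM per kb and Mrtfb lowest at 0.213, but Srf (9.00) then stood above Mef2d (8.47). Myocardin, the coactivator most restricted to muscle, was thus present at a lower level per length than SRF on either scale.

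**Figure D1:**
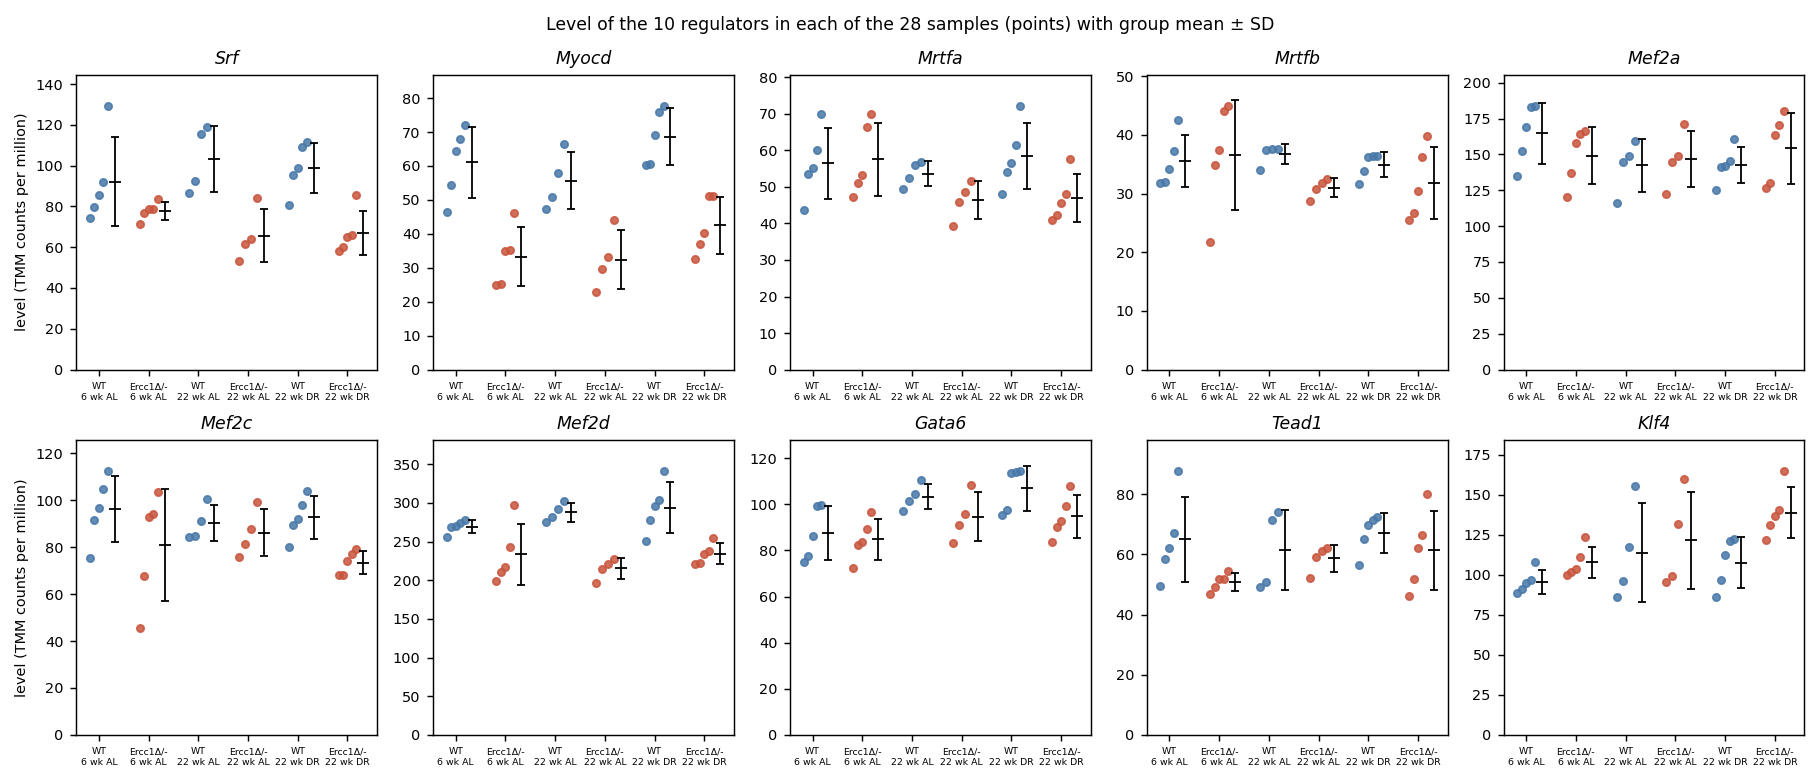
Level of each of the 10 genes (vertical axis, TMM-scaled CPM, from 0) in the 6 groups (horizontal axis, WT blue and Ercc1Δ/- red). Points are the 28 libraries and bars the group mean ± SD. Myocd is the gene whose Ercc1Δ/- points lie below all WT points at each age and diet, with group means of 33.3 against 61.1, 32.4 against 55.7 and 42.5 against 68.7 CPM.

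The first question of the design is how the genotypes differ at each age and diet. Myocd was lower in Ercc1Δ/- mice at 6 weeks, at 22 weeks AL and at 22 weeks on DR. Srf and Mef2d joined it at 22 weeks on both diets, and Mef2c was lower on DR. No regulator was called higher in any comparison. Of the 10 genes, 1 was called at 6 weeks, 3 at 22 weeks AL and 4 on DR, all lower, where 1.7%, 12% and 13% of all tested genes were called in either direction and 1.13%, 6.16% and 7.03% were called lower.

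Myocd (chr11:65067387-65160828, minus strand, GRCm39) encodes the coactivator that switches SRF to contractile genes. At 6 weeks, WT libraries had 46.5, 54.5, 64.3, 67.9 and 72.1 CPM and Ercc1Δ/- libraries 25.1, 25.1, 35.0, 35.1 and 46.1 CPM. The groups did not overlap, although the highest Ercc1Δ/- library came within 1 CPM of the lowest WT library. The change was -0.84 on the log2 scale (SE 0.17, adjusted p = 0.0122), or 44.1% lower, and the call held with any single library left out.

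At 22 weeks AL, Myocd stood at 47.4, 50.9, 58.0 and 66.3 CPM in WT and at 23.0, 29.6, 33.1 and 43.9 CPM in Ercc1Δ/-. On DR the values were 60.2, 60.4, 69.1, 76.0 and 77.6 CPM in WT and 32.6, 37.0, 40.2, 51.2 and 51.3 CPM in Ercc1Δ/-. Every Ercc1Δ/- library was below every WT library of the same diet. The log2 changes were -0.84 (SE 0.19, adjusted p = 0.00681) on AL and -0.71 (SE 0.14, adjusted p = 0.00145) on DR. Thinning all libraries to the lowest total ended the Myocd calls, with log2 changes of -0.74 at 6 weeks (adjusted p = 0.207), -0.56 at 22 weeks AL (adjusted p = 0.283) and -0.60 on DR (adjusted p = 0.0516). It also lowered the calls over all tested genes, from 210 to 122, 1487 to 681 and 1605 to 933 in these comparisons. The noncoding gene Gm12295 spans Myocd on the same strand in the annotation used here, which is later than the one used for counting. It had 386 counts against 5350 for Myocd over the 28 libraries. Some Myocd reads may therefore have been given to Gm12295 or left unassigned.

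Srf (chr17:46857767-46867119, minus strand, GRCm39) encodes the DNA-binding partner of myocardin. At 6 weeks its level was 74.2, 79.8, 85.7, 91.8 and 129.2 CPM in WT and 71.5, 76.7, 78.7, 78.9 and 83.7 CPM in Ercc1Δ/-. These groups overlapped, and the log2 difference of -0.25 (95% CI -0.53 to 0.03, adjusted p = 0.454) was not called. At 22 weeks AL the WT libraries had 86.8, 92.6, 115.3 and 119.0 CPM and the Ercc1Δ/- libraries 53.1, 61.3, 64.2 and 84.1 CPM, without overlap. Srf was then lower by 36.3% (log2 change -0.65, SE 0.15, adjusted p = 0.00625), a call lost without WT library 018 (log2 change -0.50, adjusted p = 0.0637).

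On DR, Srf was at 80.7, 95.3, 98.7, 109.0 and 111.5 CPM in WT and at 58.1, 59.9, 64.8, 66.2 and 85.5 CPM in Ercc1Δ/-. All but 1 of the Ercc1Δ/- libraries were below the WT range. The change of -0.58 on the log2 scale (SE 0.13, adjusted p = 0.00357) was called in all 9 alternative fits and with any library left out. A call at 22 weeks beside none at 6 weeks does not show a change with age. The difference between the genotype effects at 22 and 6 weeks was -0.40 on the log2 scale (95% CI -0.82 to 0.02, adjusted p = 0.461).

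The related coactivators Mrtfa and Mrtfb, which respond to the actin pool rather than to muscle identity, were not called in any comparison. On DR Mrtfa was at 48.2, 54.1, 56.5, 61.5 and 72.1 CPM in WT and at 40.9, 42.4, 45.5, 48.2 and 57.7 CPM in Ercc1Δ/-. Its log2 difference there, -0.33 (95% CI -0.57 to -0.09), missed the threshold at an adjusted p of 0.0596 and passed it without the filter on low counts (adjusted p = 0.039). Mrtfb at 22 weeks AL was at 34.1, 37.4, 37.6 and 37.6 CPM in WT and at 28.8, 30.9, 31.8 and 32.5 CPM in Ercc1Δ/-. The groups did not overlap, yet the log2 difference of -0.29 (95% CI -0.62 to 0.03, adjusted p = 0.239) was not called.

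Among the MEF2 factors, which bind an AT-rich element in muscle genes and are held back by class IIa histone deacetylases, Mef2d moved with genotype on both diets. At 22 weeks AL Mef2d (chr3:88049185-88079398, plus strand, GRCm39) was at 275.0, 281.2, 292.5 and 302.5 CPM in WT and at 196.8, 214.8, 221.2 and 227.9 CPM in Ercc1Δ/-. These groups stood well apart, with a log2 change of -0.44 (SE 0.10, adjusted p = 0.00705), or 26.3% lower. Thinning gave -0.30 for it (adjusted p = 0.117). On DR the WT libraries were at 251.2, 277.9, 295.7, 303.8 and 340.7 CPM and the Ercc1Δ/- libraries at 221.0, 222.4, 234.4, 237.2 and 254.7 CPM. Only the lowest WT and the highest Ercc1Δ/- library crossed, and the log2 change was -0.33 (SE 0.08, adjusted p = 0.00666). At 6 weeks Mef2d ran from 255.7 to 278.1 CPM in WT and from 198.8 to 297.5 CPM in Ercc1Δ/- (log2 difference -0.20, 95% CI -0.39 to -0.01, adjusted p = 0.37).

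Mef2c (chr13:83652064-83815555, plus strand, GRCm39) was called on DR alone. Its WT libraries had 80.1, 89.5, 92.1, 97.9 and 104.1 CPM there and its Ercc1Δ/- libraries 68.4, 68.4, 74.0, 77.1 and 79.2 CPM, without overlap. The log2 change was -0.33 (SE 0.09, adjusted p = 0.0185). This is the least stable call of the set, since it was lost in 3 of 9 alternative fits and on leaving out any of 3 of 10 libraries (WT 007, WT 028 or Ercc1Δ/- 016, adjusted p = 0.0664, 0.0562 and 0.0553). On AL Mef2c was at 84.5 to 100.8 CPM in WT and at 75.9 to 99.3 CPM in Ercc1Δ/- (log2 difference -0.13, 95% CI -0.49 to 0.24), and the genotype by diet interaction was -0.26 (95% CI -0.54 to 0.03, adjusted p = 0.631). Mef2a, the third of these factors, differed by -0.12 at 6 weeks, 0.03 at 22 weeks AL and 0.10 on DR on the log2 scale, and its intervals all included 0.

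Gata6 and Tead1, which are expressed in smooth muscle and in other cells of the vessel wall, were not called. Gata6 differed by -0.03 (95% CI -0.24 to 0.18) at 6 weeks, -0.13 (95% CI -0.37 to 0.11) at 22 weeks AL and -0.17 (95% CI -0.36 to 0.01) on DR, all log2. Gata6 and the antisense gene Gata6os, with 9959 and 1156 counts over the 28 libraries, overlap by 1692 bases. Reads in that stretch can be told apart only if counting used strand, which is not stated in the sources used here. The same holds for Mef2a and the antisense gene Lysmd4, with 15229 and 1870 counts, which overlap by 76168 bases. Tead1 at 6 weeks was at 49.4 to 87.6 CPM in WT and at 46.8 to 54.4 CPM in Ercc1Δ/-, with a log2 difference of -0.31 (95% CI -0.59 to -0.03, adjusted p = 0.319). At 22 weeks the Tead1 differences were -0.02 on AL and -0.14 on DR.

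Klf4 (chr4:55527139-55532528, minus strand, GRCm39), the repressor of the set, was the only regulator with a positive difference in all 3 genotype comparisons, none of them called. On DR it stood at 85.9, 96.6, 112.1, 121.1 and 122.4 CPM in WT and at 121.5, 130.9, 136.7, 140.7 and 164.6 CPM in Ercc1Δ/-. A single Ercc1Δ/- library lay within the WT range. The log2 difference of 0.36 (95% CI 0.09 to 0.64, adjusted p = 0.077) was not called, although a fit with only the 2 groups called it (adjusted p = 0.0166). At 6 weeks the difference was 0.18 (adjusted p = 0.688) and at 22 weeks AL 0.08 (adjusted p = 0.814), where both genotypes spread widely, from 85.9 to 155.7 CPM in WT and from 95.3 to 160.0 CPM in Ercc1Δ/-.

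Within a library, the ratio of Klf4 to Myocd counts needs no scaling between libraries. It was 1.34 to 1.96 in WT and 2.16 to 4.12 in Ercc1Δ/- at 6 weeks, 1.81 to 2.35 and 2.26 to 4.84 at 22 weeks AL, and 1.11 to 2.03 and 2.37 to 4.02 on DR. Thus only at 22 weeks AL did the 2 genotypes overlap in this ratio, and its medians were higher in Ercc1Δ/- throughout. The ratio combines 2 genes chosen with their values known and was not tested.

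**Figure D2:**
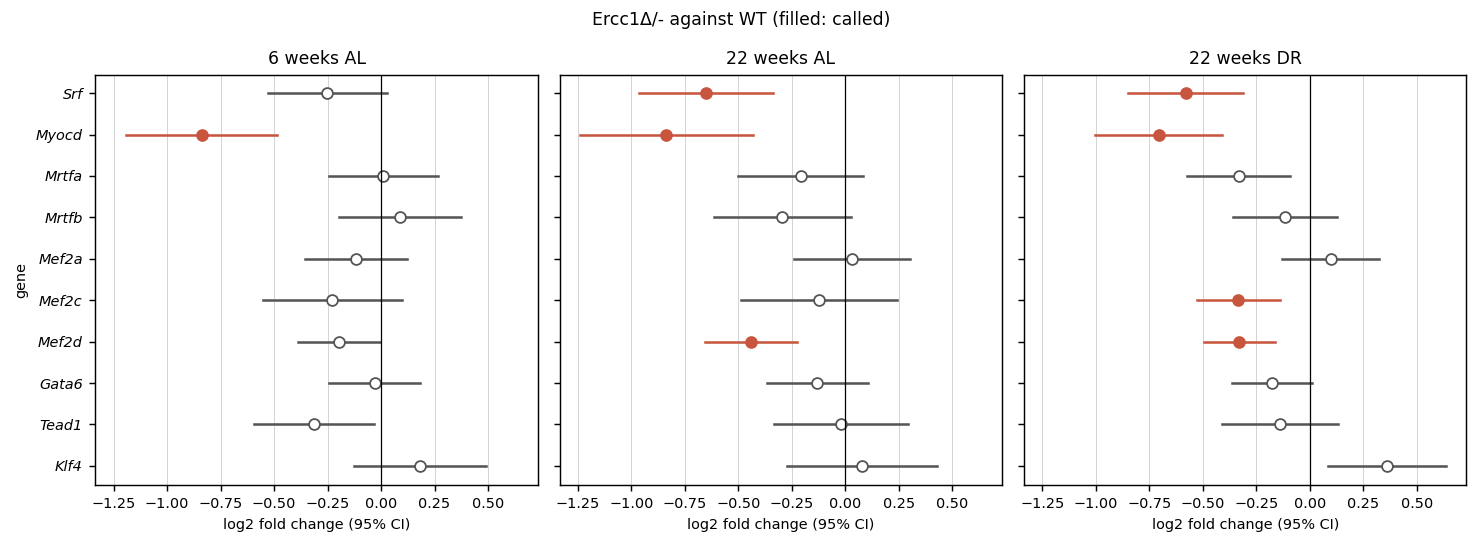
Difference between Ercc1Δ/- and WT for each of the 10 genes (horizontal axis, log2 fold change with 95% confidence interval) at 6 weeks AL, 22 weeks AL and 22 weeks DR. Filled red points were called. Myocd lies at -0.84, -0.84 and -0.71, and Klf4 is on the other side of 0 at 0.18, 0.08 and 0.36 without a call.

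The called regulators were then set against the smooth muscle content of the same libraries. The summed smooth muscle markers were lower in Ercc1Δ/- mice, with medians of 33700 CPM in WT and 26100 CPM in Ercc1Δ/- at 6 weeks, 35600 and 22000 CPM at 22 weeks AL, and 34700 and 24400 CPM on DR. Of the 6 markers, 1, 5 and 6 were called lower in these 3 comparisons. Relative to the summed markers, none of the 8 called differences had an adjusted p of at most 0.05 in an exact permutation test. The smallest unadjusted p such a test allows is 0.0286 for 4 against 4 libraries and 0.0079 for 5 against 5. After adjustment over 8 tests, a lone result at either of these values could not have passed. A missed threshold here therefore does not show that the genotypes had equal ratios. At 22 weeks AL, Srf was at 228 to 342 per 100000 of the markers in WT and at 253 to 330 in Ercc1Δ/-, and Myocd at 126 to 175 and 90.4 to 178. The log2 difference in this ratio was 0.064 for Srf (adjusted p = 0.8381, two-sided exact permutation test) and -0.08 for Myocd (adjusted p = 0.9429, same test).

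On DR the Myocd ratio ran from 174 to 217 in WT and from 129 to 220 in Ercc1Δ/- (log2 difference -0.15, adjusted p = 0.5968, exact permutation test). At 6 weeks, where the markers differed least, it ran from 114 to 214 in WT and from 76.7 to 178 in Ercc1Δ/-, with a log2 difference of -0.53 (p = 0.09524, adjusted p = 0.254, exact permutation test). Mef2d and Mef2c, which other cell types of the vessel also express, had ratios that were higher in Ercc1Δ/- by 0.31 for Mef2d on AL and by 0.23 and 0.22 for Mef2d and Mef2c on DR, without passing the test (adjusted p = 0.3429, 0.254 and 0.254, exact permutation tests). Of the 8 tests, Mef2d on DR was the only one with an unadjusted p under 0.05 (p = 0.04762, exact permutation test). For Mef2c at 22 weeks AL, where its level was not called, the ratio ran from 223 to 299 in WT and from 340 to 489 in Ercc1Δ/- without overlap, and this difference was not tested. The 8 p-values were adjusted together, and the markers are themselves known SRF targets, so the ratio compares regulators with their output as well as with cell content.

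**Figure D3:**
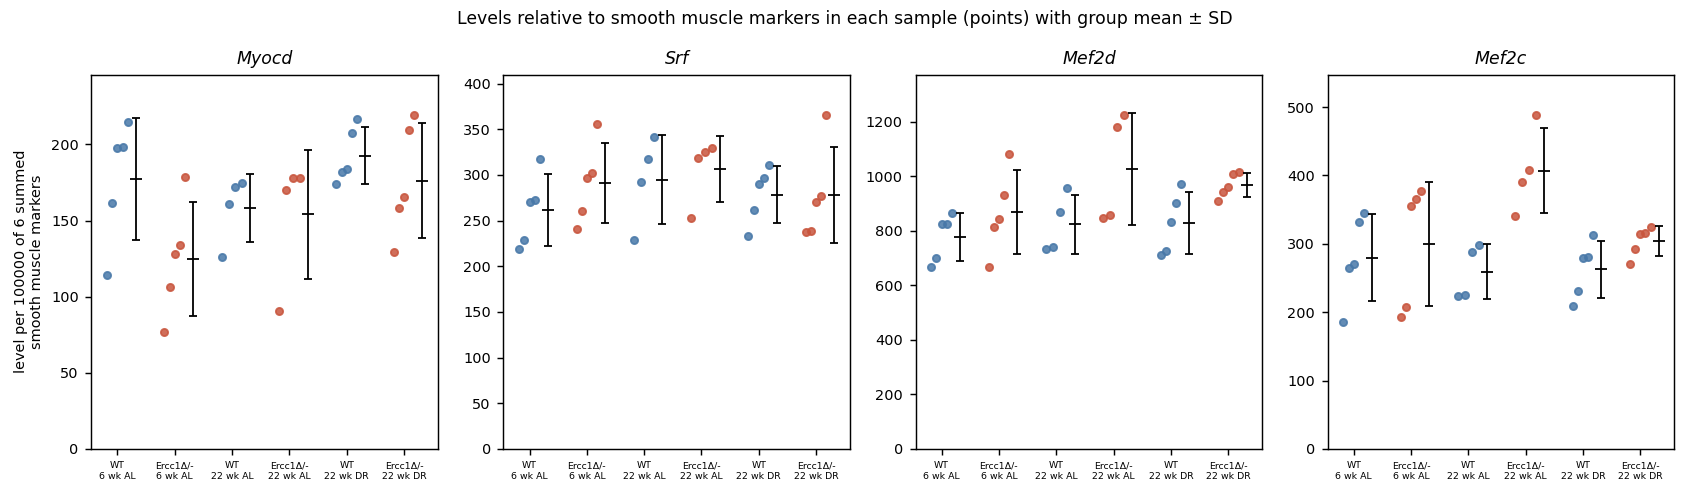
Level of Myocd, Srf, Mef2d and Mef2c per 100000 CPM of the 6 summed smooth muscle markers (vertical axis, from 0) in the 28 libraries by group. Points are libraries and bars the group mean ± SD. The genotypes overlap at each age and diet in which the gene was called, as for Srf at 22 weeks AL (228 to 342 in WT and 253 to 330 in Ercc1Δ/-), and they stand apart for Mef2c at 22 weeks AL (223 to 299 and 340 to 489), where its level was not called.

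Markers of other cell types moved with genotype beside these results. The 8 macrophage markers summed to 195 to 233 CPM in WT and 235 to 600 CPM in Ercc1Δ/- at 6 weeks, 242 to 358 and 544 to 990 CPM at 22 weeks AL, and 146 to 277 and 340 to 1230 CPM on DR, with 1, 7 and 4 called higher. The 8 endothelial markers summed to 768 to 1110 and 626 to 1080 CPM at 22 weeks AL with 1 called higher, and to 429 to 900 and 855 to 1400 CPM on DR with 4 called higher. Of 8 fibroblast markers, 2 were called lower on AL, and 2 lower and 1 higher on DR, with sums of 6720 to 14800 CPM over all libraries. None of 8 fat markers was called in a genotype comparison, at sums of 463 to 3660 CPM. Of 10 cardiac markers, 7 could be tested and 1, Tnnt2, was called higher at 22 weeks on both diets. At 22 weeks AL, 5 of these 7 had differences below 0, with a list median of -0.45 on the log2 scale. On DR, 1 of the 7 was below 0 and the median was 1.22. The cardiac sums were 87.1 to 132 CPM in WT and 81.1 to 214 CPM in Ercc1Δ/- at 6 weeks, 147 to 306 and 214 to 394 CPM at 22 weeks AL, and 141 to 247 and 259 to 622 CPM on DR, without overlap on DR, and heart muscle is known to express Myocd, Srf, Gata6 and MEF2 factors. The ventricular marker Myl2 had at most 1 count in any of the 28 libraries, WT or Ercc1Δ/-. Of 8 skeletal muscle markers 1 could be tested and was not called, and their sum reached 223 CPM in Ercc1Δ/- library 013, where the other 27 libraries were at or under 14.2 CPM. The 3 calls at 22 weeks AL held without library 013. Its omission does not equalise the groups, since every Ercc1Δ/- library there had macrophage sums of at least 544 CPM and every WT library at most 358 CPM. The part of these cell types in the results was not tested.

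Measures of library quality moved with genotype at 22 weeks as well. Mitochondrial genes took 2.47% to 3.72% of gene counts in WT and 5.37% to 5.96% in Ercc1Δ/- on AL, without overlap, and 2.88% to 5.12% and 4.04% to 9.22% on DR, beside 3.05% to 6.12% and 2.73% to 5.27% at 6 weeks. Reads without a unique alignment made up 3.66% to 4.46% in WT and 5.19% to 5.74% in Ercc1Δ/- on AL, and 4.04% to 5.04% and 4.73% to 7.06% on DR. The part of these measures in the results was not tested. The 4 calls on DR held without library 006, which had the highest mitochondrial share. Its omission does not equalise the groups, since the other Ercc1Δ/- libraries on DR were at 4.04% to 6.16%.

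The second question is whether age or DR moved the regulators within a genotype. None of the 10 was called in either, where 0.235% of all genes were called between 6 and 22 weeks in WT, 4.69% in Ercc1Δ/-, 1.28% between diets in WT and 1.64% in Ercc1Δ/-. At an unadjusted p under 0.05, edgeR gave 1, 1, 1 and 2 of the 10 in these 4 comparisons. Of all 12353 tested genes, 1067, 2198, 1581 and 1853 were under the same limit. DESeq2 called 0 of the 10 in each. Neither interaction called a regulator, at backgrounds of 0.842% for age and 0.0971% for diet.

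With age, Gata6 in WT went from a median of 86.2 to 103.0 CPM (log2 difference 0.25, 95% CI 0.03 to 0.47, adjusted p = 0.5). In Ercc1Δ/- mice Mrtfa went from a median of 53.1 to 47.3 CPM (log2 difference -0.32, 95% CI -0.60 to -0.04, adjusted p = 0.212). For Srf the age difference was 0.14 (95% CI -0.15 to 0.42) in WT and -0.26 (95% CI -0.57 to 0.04) in Ercc1Δ/-. The Myocd difference was -0.09 in both genotypes, with intervals of -0.45 to 0.26 and -0.49 to 0.31.

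On DR, Myocd had higher medians than on AL in both genotypes, 69.1 against 54.5 CPM in WT and 40.2 against 31.4 CPM in Ercc1Δ/-. The log2 differences of 0.31 (95% CI 0.03 to 0.58, adjusted p = 0.329) and 0.38 (95% CI 0.03 to 0.73, adjusted p = 0.281) did not pass the threshold, and the interaction was 0.07 (95% CI -0.38 to 0.52). Mef2c differed the other way in Ercc1Δ/- mice, with medians of 74.0 CPM on DR and 84.7 CPM on AL (log2 difference -0.22, 95% CI -0.43 to -0.0044, adjusted p = 0.317), and by 0.04 (95% CI -0.15 to 0.23) in WT. Srf differed by -0.06 (95% CI -0.32 to 0.20) in WT and 0.04 (95% CI -0.26 to 0.34) in Ercc1Δ/- between diets, and Mef2d by 0.03 (95% CI -0.14 to 0.21) and 0.12 (95% CI -0.06 to 0.30). The same 22-week AL libraries enter the diet and the genotype comparisons. In the order of group means, Myocd was highest in WT on DR (68.7 CPM), then in WT at 6 weeks (61.1) and at 22 weeks AL (55.7), then in Ercc1Δ/- on DR (42.5), at 6 weeks (33.3) and at 22 weeks AL (32.4). Of the neighbours in this order, the 6-week and 22-week AL groups of each genotype were compared and were not called, and the other 3 neighbouring pairs differ in more than 1 factor and were not compared.

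**Figure D4:**
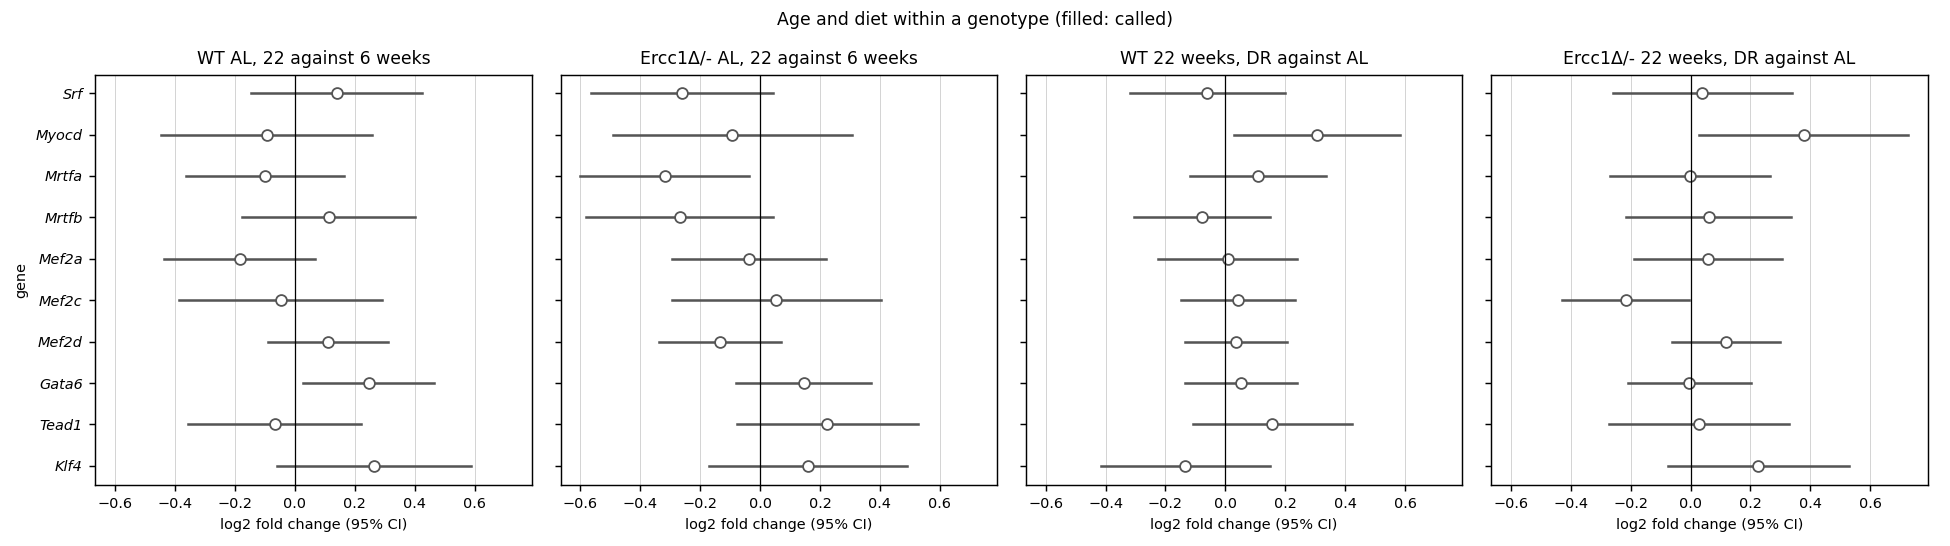
Differences between 22 and 6 weeks within a genotype and between DR and AL within a genotype for the 10 genes (horizontal axis, log2 fold change with 95% confidence interval). No point is filled, so no gene was called, and Myocd on DR lies at 0.31 in WT and 0.38 in Ercc1Δ/-.

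The genes on which these regulators act were followed in a list of 30 contractile and cytoskeletal targets. At 6 weeks 7 of the 30 were called lower in Ercc1Δ/-, at 22 weeks AL 22 and on DR 24, and none was called higher. Of all tested genes, 1.13%, 6.16% and 7.03% were called lower. The list median was -0.32, -0.61 and -0.56 on the log2 scale, beside 0.02, 0.03 and 0.00 over all tested genes. The list includes the 6 smooth muscle markers, whose own medians were -0.30, -0.69 and -0.60. The part of smooth muscle content in these changes was not tested. The largest changes at 6 weeks were in Itga8 (an integrin subunit of smooth muscle, -0.71, adjusted p = 0.00198), Ppp1r12b (a myosin phosphatase subunit, -0.54), Jph2 (a junctophilin, -0.52) and Mylk (myosin light chain kinase, -0.50). At 22 weeks AL they were in Actg2 (smooth muscle gamma actin, -1.19, adjusted p = 0.000714), Itga8 (-1.05), Synpo2 (an actin-bundling protein, -0.96) and Myh11 (smooth muscle myosin heavy chain, -0.96). On DR they were in Fhl2 (-1.13, adjusted p = 0.0102), Actg2 (-1.10), Jph2 (-0.85) and Cnn1 (calponin, -0.79). Fhl2 was a gene of low level, with 6-week group means of 9.14 CPM in WT and 10.4 CPM in Ercc1Δ/-. For Cnn1 these were 1832 and 1375 CPM.

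All 4 targets with a CArG box in their window had negative differences at 22 weeks on both diets, as did 29 of the 30 listed targets on each diet. Vcl fell by 0.82 on the log2 scale at 22 weeks AL (278 CPM in Ercc1Δ/- against 488 CPM in WT, adjusted p = 2.48e-05) and by 0.41 on DR (adjusted p = 0.0011). Myl9 fell by 0.43 on AL and by 0.51 on DR, Fhl2 differed by -0.42 on AL (SE 0.26, adjusted p = 0.324) and was called on DR, and Fhl1 differed by -0.15 and -0.26 without a call. Differences between these genes were not tested. With age, 6 targets were lower at 22 than at 6 weeks in Ercc1Δ/- mice, with the largest changes in Actg2 (-1.11), Vcl (-0.58), Tpm1 (tropomyosin, -0.52) and Cnn1 (-0.46), and none in WT mice. Of all tested genes, 4.69% were called with age in Ercc1Δ/- mice and 0.235% in WT mice, in either direction. With DR, Synpo2 was higher in Ercc1Δ/- mice (0.51, adjusted p = 0.0155) and no target was called in WT mice. Neither interaction called any of the 30 targets (lowest adjusted p = 0.0917 for genotype by age and 0.212 for genotype by diet). Calls in 1 genotype beside none in the other thus do not show that the genotypes differ in these changes.

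SRF also serves early response genes through ternary complex factors. Of 12 such targets 11 were tested, and 1, Fosb (an AP-1 subunit), was lower in Ercc1Δ/- at 6 weeks (-2.19, adjusted p = 0.0116), with none called at 22 weeks on either diet. The list medians were -0.84 at 6 weeks, -0.10 at 22 weeks AL and 0.12 on DR. The ternary complex factors Elk1, Elk3 and Elk4 were not called. Of 9 tested partners of SRF only Csrp2, a LIM protein of smooth muscle, was called, lower in Ercc1Δ/- at 6 weeks (-0.49) and on DR (-0.47), and higher on DR than on AL in WT (0.53, adjusted p = 0.01).

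For the partners of TEAD1, 12 of 13 listed genes were tested. Ccn2, a YAP and TEAD target, was lower in Ercc1Δ/- at 6 weeks (-0.88, adjusted p = 0.0399), and Tead3 at 22 weeks AL (-0.56, adjusted p = 0.00577). On DR 5 were lower, with the largest changes in Ccn1 (-1.16), Amotl2 (-0.49), Tead3 (-0.46) and Lats2 (a YAP kinase, -0.44), so that a relative of TEAD1 was called where TEAD1 was not. Ankrd1, another YAP target, was lower on DR than on AL in WT (-0.92, adjusted p = 0.0453). Windows with CATTCC were found for 9 of the 11 genes of this list that had a window, beside 4481 of all 27025 genes with a window.

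Among regulators of MEF2, Hdac9, a class IIa deacetylase that binds MEF2 and is itself a MEF2 target, was lower in Ercc1Δ/- at 22 weeks AL (-0.78, adjusted p = 0.0052) and on DR (-0.87, adjusted p = 6.74e-05), and Hdac5 on DR (-0.58). No other of the 9 tested was called. Of 9 tested relatives of KLF4 and GATA6, Klf6 was lower at 6 weeks (-0.61, adjusted p = 0.011) and Gata2, a factor of endothelial and blood cells, higher on DR (0.78, adjusted p = 0.0288). No gene of the early response, SRF partner, TEAD, MEF2 and KLF lists was called with age in either genotype or with DR in Ercc1Δ/- mice.

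**Figure D5:**
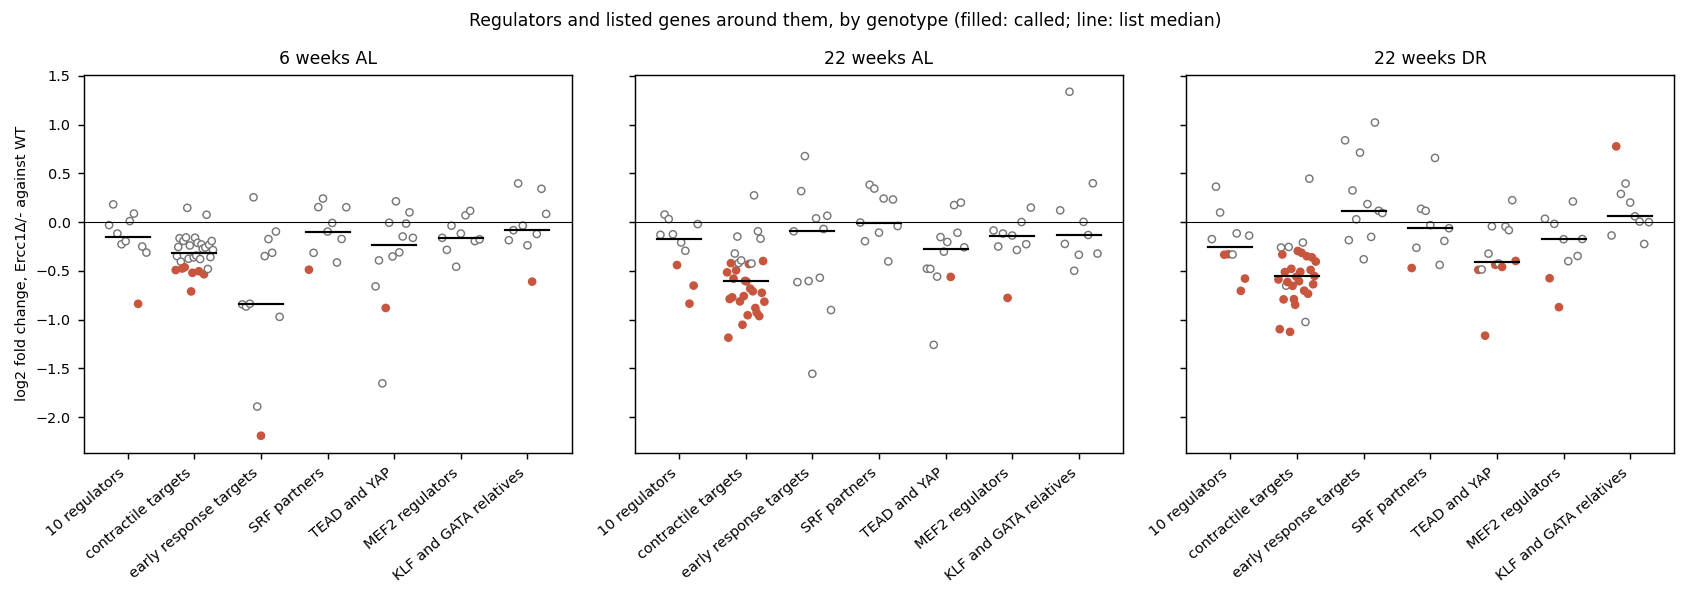
Difference between Ercc1Δ/- and WT (vertical axis, log2 fold change) for the 10 regulators and 6 lists of genes around them, at 6 weeks AL, 22 weeks AL and 22 weeks DR. Each point is a gene, filled red where called, and lines are list medians. The contractile targets lie lowest as a list at 22 weeks, with medians of -0.61 on AL and -0.56 on DR.

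The genes whose levels most resembled 3 of the regulators across the 28 libraries were found by Pearson correlation of log2 CPM, as a description in which the libraries share their groups and differ in depth. For Srf these were Vasp (r = 0.91), Pdlim7 (0.88), Pkdcc (0.88), Jph2 (0.87) and Cnn1 (0.86), and after centring on group means the correlations were 0.80, 0.72, 0.69, 0.67 and 0.67. Vasp binds actin filaments, and Jph2, Cnn1 and Pdlim7 were on the list of contractile targets. For Myocd they were Rock1 (0.90), Filip1l (0.86), Dnajb4 (0.84), Aopep (0.83) and Ercc2 (0.83), and 0.65, 0.55, 0.58, 0.42 and 0.48 after centring. For Klf4 they were Rapgef3 (0.74), Shtn1 (0.73), Cryzl2 (0.72), Pltp (0.72) and S1pr1 (0.71), and 0.57, 0.66, 0.77, 0.65 and 0.72 after centring.

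The regulators resembled each other less. Srf and Myocd correlated at 0.56 over the 28 libraries and at 0.05 after centring on group means, so their likeness lay between groups and not between mice of a group. Myocd with Mef2d gave 0.71 and 0.17, Srf with Mef2d 0.65 and 0.12, Myocd with Mef2c 0.53 and 0.47, and Srf with Klf4 -0.51 and -0.36. The log2 total of the library correlated with Srf at 0.46 and with Myocd at 0.26.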

How the data were processed

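RNA of the aortic arch was sequenced with unique molecular identifiers. The authors aligned the reads to mm39 with STAR 2.7.10a, removed duplicates with UMI-tools 1.1.2 and counted reads over genes with htseq-count 2.0.2, and they deposited raw counts per gene without normalization. The 5 lines of unassigned reads (12.6% to 18.7% of a library) were kept out. The 28 samples exclude 003 (400410 counts), as in the study. A gene entered the tests if over 10 samples each held over 10 of its counts. Tests used edgeR 4.0.16 in R 4.3.3 (TMM, robust quasi-likelihood fit, group and sex), in a fit of the 18 AL samples and another of the 18 samples of 22 weeks. Each mouse gave 1 sample, from separate animals. An interaction needed an adjusted p of at most 0.05 only. In simulated data of 12353 genes, 91 of 100 genes changed 3-fold and 31 of 100 changed 1.5-fold were recovered at 22 weeks AL. Exact tests used scipy 1.17.1. Positions and lengths came from a later GENCODE annotation of GRCm39, and promoters from RefSeq on GRCm38.p6. The members and the gene lists, written from general knowledge, were chosen with earlier results of these data known. All 10 members are named, list genes by the largest called changes (up to 4 in each direction), and the 5 genes most like Srf, Myocd and Klf4 by correlation. Genes with a promoter motif, and ternary complex factors, were named after their values were seen. Alternatives were DESeq2 1.42.0, RLE size factors, no filter, 003 added, no sex term, all 28 samples or only the compared groups in a fit, thinning to 921167 counts, omission of each sample, and, after the data were seen, the earlier dispersion method of edgeR and levels relative to the smooth muscle markers. Results of 1 further list are not reported here.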

Additional observations from a re-analysis of the deposited data

Results flagged for a closer look

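Of 60 combinations of a regulator and a group, 1 held a sample far from the others by Dixon's test, where chance flags about 1 in 20. Mrtfb in WT mice at 22 weeks AL was at 34.1 CPM in sample 020, with the nearest of the other 3 at 37.4 CPM. The gap took 0.933 of the group's range.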

How the results depend on the processing

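No paired analysis was possible because each mouse gave 1 sample and the sample numbers are not shared between groups. Thinning to the lowest total lowered the number of called regulators from 1 to 0 at 6 weeks, from 3 to 1 at 22 weeks AL and from 4 to 2 on DR, and fewer counts per gene enter this fit by its construction. Calls over all tested genes fell as well, from 210 of 12353 to 122 of 9635 at 6 weeks. At 22 weeks they fell from 1487 to 681 on AL and from 1605 to 933 on DR. With a sample left out, the number ran from 1 to 1 at 6 weeks, from 2 to 3 at 22 weeks AL and from 3 to 5 on DR. Age, diet and interaction comparisons called 0 of the 10 in every alternative. Relative to the smooth muscle markers, 4 called differences changed sign. These were Srf (0.064) and Mef2d (0.31) at 22 weeks AL and Mef2c (0.22) and Mef2d (0.23) on DR. None of them passed the exact permutation test, and the other 4 calls were lost. A lone result could not have passed this test after adjustment over the 8 tests. Of 1798 member differences recomputed in all, 15 lost and 4 gained a call, and 119 changed sign with no call in either. The RLE factors moved no group mean of a member by more than 1 SD. The 2 Ercc1Δ/- groups of 22 weeks had the lowest median totals, and the intervals of members without a call are up to 1.11 wide on the log2 scale.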
